A study of Mus musculus with 5 samples.

Results

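The genes described are 10 members of the FGF and ERK signalling pathway, chosen by symbol from the 24421 genes of the deposited tables. They are the ligand Fgf4, the receptors Fgfr1 and Fgfr2, the Sprouty inhibitors Spry1, Spry2, and Spry4, the phosphatases Dusp4 and Dusp6, and the transcription factors Etv4 and Etv5. No threshold was applied, and each symbol occurred once in each of the 2 tables. RNA-seq had been run on 5 mouse libraries to compare pluripotent cells with somatic cells, and V6.5 cells with Gldc knocked down with their control. MEFs are fibroblasts grown from CF-1 embryos at mid-gestation. The iPSCs are somatic cells reprogrammed to pluripotency, from 1 line. The mESCs are untreated V6.5 cells, an embryonic stem cell line. NTC cells are V6.5 cells with a nontargeting shRNA, and shGldc cells are V6.5 cells with an shRNA against Gldc, the glycine-cleaving subunit of the glycine cleavage system. Per the labels, the 4 pluripotent libraries share a feeder-free medium with serum replacement, a little serum, and leukaemia inhibitory factor, whereas MEFs were grown in serum. No kinase inhibitor is named for any of them. Each group is 1 library, so there are no replicates, no error, and no p-value, and every difference below is between libraries.

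FGF ligands bind receptor tyrosine kinases, which act through Ras, Raf, and MEK on the kinase ERK. ERK activity switches on genes that in turn damp the pathway, among them the Sprouty proteins, which act upstream of or on Raf, and the dual-specificity phosphatases, which remove phosphate from MAP kinases. The ETS factors Etv4 and Etv5 are also known transcriptional targets of FGF signalling. In mouse embryonic stem cells, Fgf4 is the main autocrine ligand, and signalling through ERK readies the cells to leave pluripotency. In this bulk RNA, fewer cells of a type and less RNA per cell cannot be told apart, and mRNA levels do not measure the activity of ERK.

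Start-site sequences were available from RefSeq (build GRCm38.p6) for 6 of the 10 genes, namely Fgf4, Fgfr2, Spry1, Spry2, Dusp6, and Etv5. The 250 bases before the start are printed below, 5′ to 3′ along the gene's strand, for the ligand, for the most abundant Sprouty gene of the pluripotent libraries, and for a phosphatase and an ETS factor, so that their letters can be read beside the levels. Capitals mark matches, on either strand, to CGGAAG for the ETS motif, TGANTCA for the AP-1 motif, TGACGTCA for the CRE, GGGCGG for the GC box, TATAAA for the TATA box, or ACAAAG for the SOX motif.
Fgf4, chr7:144861136-144861385, plus strand: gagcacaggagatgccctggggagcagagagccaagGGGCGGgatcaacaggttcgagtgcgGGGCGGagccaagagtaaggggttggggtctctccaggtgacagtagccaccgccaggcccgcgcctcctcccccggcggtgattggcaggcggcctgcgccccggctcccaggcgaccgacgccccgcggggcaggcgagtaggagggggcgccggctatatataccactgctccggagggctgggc
Spry2, chr14:105896820-105897069, minus strand: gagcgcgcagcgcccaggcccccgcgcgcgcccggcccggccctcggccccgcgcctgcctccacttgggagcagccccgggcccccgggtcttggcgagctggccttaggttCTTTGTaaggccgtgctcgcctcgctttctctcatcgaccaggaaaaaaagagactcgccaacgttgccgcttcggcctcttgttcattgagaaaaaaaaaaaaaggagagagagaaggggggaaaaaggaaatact
Dusp6, chr10:99262981-99263230, plus strand: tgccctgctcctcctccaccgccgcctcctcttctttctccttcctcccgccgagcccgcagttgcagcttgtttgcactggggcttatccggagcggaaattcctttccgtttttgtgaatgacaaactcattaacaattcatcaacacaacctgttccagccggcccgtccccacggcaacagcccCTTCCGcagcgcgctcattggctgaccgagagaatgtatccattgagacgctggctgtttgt
Etv5, chr16:22439571-22439820, minus strand: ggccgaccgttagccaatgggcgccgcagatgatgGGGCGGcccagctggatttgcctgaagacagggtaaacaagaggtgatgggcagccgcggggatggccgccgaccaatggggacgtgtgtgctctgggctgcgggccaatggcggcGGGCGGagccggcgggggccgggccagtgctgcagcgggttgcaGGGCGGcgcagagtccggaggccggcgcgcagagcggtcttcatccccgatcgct
The Fgf4 window held 2 GC boxes, the Spry2 window 1 SOX match beginning 137 bases before the start, the Dusp6 window 1 ETS match beginning 62 bases before the start, and the Etv5 window 3 GC boxes. The Spry1 window held 1 GC box, and neither the Fgfr2 window nor the window of a second Etv5 start held any of the 6 motifs. Of 32851 RefSeq mouse windows of this length, 13.6% held the ETS motif, 6.75% the AP-1 motif, 1.55% the CRE, 32.7% the GC box, 12.4% the TATA box, and 16.5% the SOX motif. The printed windows were rich in G and C, at 71.2% for Fgf4, 62.4% for Spry2, 56.4% for Dusp6, and 71.2% for Etv5, against 44.0% for Fgfr2. A match describes the letters only, and binding was not measured.

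The labels were first checked against Gldc and cell type markers. Gldc was at an FPKM (fragments counted, scaled to transcript length and to all mapped fragments) of 0.123 in MEFs, 70.8 in iPSCs, 59.7 in mESCs, 74.7 in NTC cells, and 2.07 in shGldc cells. It was therefore low in the knockdown library and in MEFs, and its log2 ratio of shGldc over NTC was -5.11. All 10 pluripotency markers reached an FPKM of 1 in each of the 4 pluripotent libraries, and 2 of 10 did in MEFs. The 10 fibroblast markers summed to 7513.9 in MEFs, 26.4 in iPSCs, 58.0 in mESCs, 15.0 in NTC cells, and 9.08 in shGldc cells. Of these 10 markers, 9 reached an FPKM of 1 in mESCs, and 4 did in each other pluripotent library. Macrophage markers summed to 215.8 in MEFs, where Lyz2 was at 141.7 and C1qc at 39.8, and to 10.7 to 20.6 elsewhere. Elsewhere most of the sum was Cd68, at 9.04 to 19.9 against 18.7 in MEFs, and C1qc was listed at 0. The part of macrophages in the MEF values, and of fibroblasts in the mESC values, was not tested. Depth, estimated from the spacing of low FPKM values, was 22100000 to 29000000 fragments, with the NTC estimate uncertain by a factor of 2. MEFs, iPSCs, and mESCs are in 1 table and NTC and shGldc cells in another, made separately, so any difference between the tables enters a comparison across them.

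The 5 libraries ranked the 10 genes differently. Since FPKM is scaled to transcript length, levels of different genes can be set side by side. In MEFs, Fgfr1 was the most abundant at 65.4, ahead of Spry1 at 40.1 and Dusp4 at 24.2, and Fgf4 was the least abundant. In iPSCs, Etv4 led at 232.1, ahead of Spry2 at 139.2 and Fgf4 at 81.2. In mESCs, Fgf4 led at 101.8, ahead of Etv5 at 76.0 and Etv4 at 51.1. Etv5 led in both shRNA libraries, at 136.2 in NTC cells and 106.7 in shGldc cells. The 3 most abundant were thus a receptor and 2 inhibitors in MEFs, an ETS factor, Spry2, and the ligand in iPSCs, and the ligand and both ETS factors in mESCs. Fgfr2 was the least abundant gene in each pluripotent library. Without replicates, it is not known which neighbours in these orders differ beyond their spread.

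**Figure D1:**
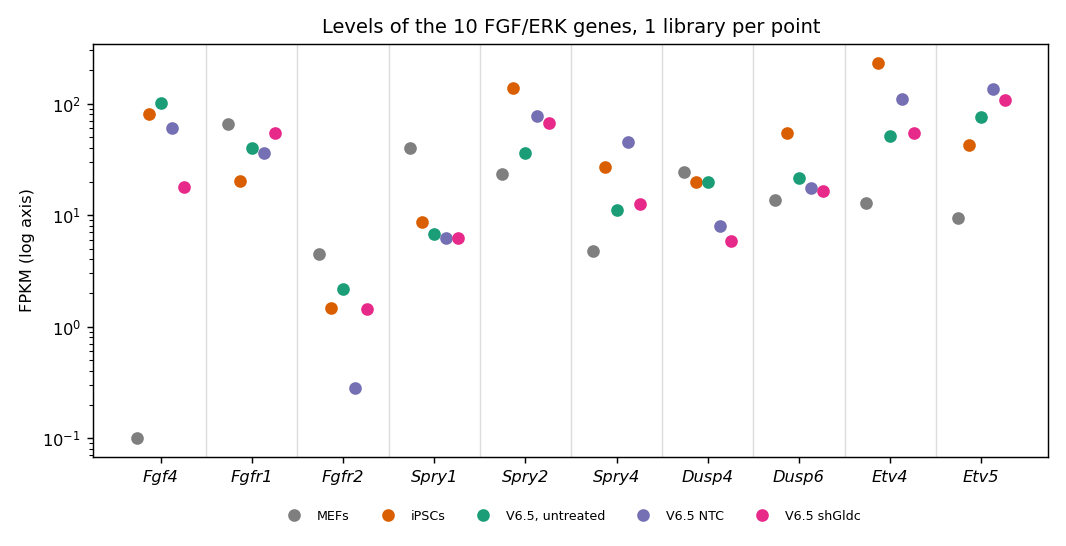
Level of each of the 10 genes (FPKM, log axis), with 1 point per library and colours for MEFs, iPSCs, untreated V6.5 cells, NTC cells, and shGldc cells. Fgf4 spans the widest range, from 0.100 in MEFs to 101.8 in untreated V6.5 cells, and Fgfr1 the narrowest, from 20.1 to 65.4.

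Fgf4 encodes the secreted ligand that pluripotent cells make for themselves. Its FPKM was 0.100 in MEFs, 81.2 in iPSCs, 101.8 in mESCs, 59.9 in NTC cells, and 18.0 in shGldc cells. It was high in all 4 pluripotent libraries, with shGldc the lowest of them, and near 0 in MEFs. The MEF level corresponds to an estimated 0.971 to 7.45 fragments, depending on which of 2 annotated transcripts they came from. At 7 fragments, the exact Poisson 95% interval was 2.81 to 14.4 fragments and covers counting error only. On the log2(FPKM + 0.1) scale used throughout, Fgf4 was higher than in MEFs by 8.99 in mESCs and by 8.67 in iPSCs, values that move with the pseudocount because the MEF level equals it. In mm10 (GENCODE M21), Fgf4 lies on chromosome 7 from 144847367 to 144865243, and none of its exonic bases overlapped another gene. The RefSeq start used for the printed Fgf4 window differs from the start of this span, and the window lies inside the span.

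Fgf4 made up most of the FGF ligand mRNA in the pluripotent libraries. Summed over Fgf4 and 17 other secreted FGF genes, ligand FPKM was 10.5 in MEFs, 94.3 in iPSCs, 128.2 in mESCs, 76.8 in NTC cells, and 28.6 in shGldc cells. Fgf4 made up 0.9501%, 86.1%, 79.4%, 78.1%, and 62.7% of these sums. The sums leave out the 4 genes Fgf11 to Fgf14, whose products stay inside the cell. The knockdown library therefore had the smallest ligand sum and the smallest Fgf4 share of the pluripotent libraries. Fgf4 per Fgfr1 was 0.00153 in MEFs, 4.05 in iPSCs, 2.54 in mESCs, 1.67 in NTC cells, and 0.331 in shGldc cells. Ligand mRNA exceeded Fgfr1 mRNA in 3 libraries, and Fgfr1 exceeded Fgf4 in MEFs and shGldc cells.

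Fgfr1, the main FGF receptor of mesenchymal cells and of the naive epiblast, was at 65.4 in MEFs, 20.1 in iPSCs, 40.1 in mESCs, 36.0 in NTC cells, and 54.3 in shGldc cells. It was highest in MEFs and lowest in iPSCs, and the 2 libraries differed 3.26-fold. Fgfr2, the receptor that in the embryo marks the primitive endoderm and trophectoderm, was at 4.47 in MEFs, 1.48 in iPSCs, 2.18 in mESCs, 0.284 in NTC cells, and 1.45 in shGldc cells. It was low in every library and lowest in NTC cells, where the level corresponds to an estimated 15.0 to 35.5 fragments. The ratio of Fgfr1 to Fgfr2 was 14.6 in MEFs, 13.5 in iPSCs, 18.4 in mESCs, 126.7 in NTC cells, and 37.5 in shGldc cells, so Fgfr1 was the more abundant of the pair throughout. Over the 4 tyrosine kinase receptors Fgfr1 to Fgfr4, Fgfr1 made up 92.7%, 66.2%, 84.2%, 92.7%, and 93.5% of the summed FPKM. Its share was lowest in iPSCs, where Fgfr4 was at 6.21 and Fgfr3 at 2.55. Fgfr1 lies on chromosome 8 from 25513654 to 25575718, with 1.66% of its exonic bases overlapping Gm16159. Gm16159 was listed at 0 in every library. Fgfr2 is annotated on chromosome 7 from 130162451 to 133123350, a span that takes in other genes, and 3.04% of its exonic bases overlapped Ctbp2.

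Spry1, Spry2, and Spry4 encode Sprouty proteins, feedback inhibitors of receptor tyrosine kinase signalling. Spry1 was at 40.1 in MEFs, 8.69 in iPSCs, 6.73 in mESCs, 6.23 in NTC cells, and 6.19 in shGldc cells. It was high in MEFs, and the 4 pluripotent libraries lay close together. Spry2 was at 23.3 in MEFs, 139.2 in iPSCs, 35.7 in mESCs, 77.3 in NTC cells, and 66.9 in shGldc cells. Spry4 was at 4.78 in MEFs, 27.2 in iPSCs, 11.0 in mESCs, 45.4 in NTC cells, and 12.6 in shGldc cells. Both were lowest in MEFs, but Spry2 peaked in iPSCs and Spry4 in NTC cells.

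Spry1 led the Sprouty mRNA pool in MEFs, and Spry2 in the pluripotent libraries. The 3 genes summed to 68.1 in MEFs, 175.1 in iPSCs, 53.4 in mESCs, 128.9 in NTC cells, and 85.6 in shGldc cells, so MEFs lay between mESCs and shGldc cells. Spry1 made up 58.8% of that sum in MEFs but 4.96% in iPSCs, 12.6% in mESCs, 4.83% in NTC cells, and 7.24% in shGldc cells. Spry2 made up 34.2%, 79.5%, 66.8%, 59.9%, and 78.1% in the same order. The lead of Spry2 over its relatives thus held in 4 of 4 pluripotent libraries. Spry4 ranged from 7.02% in MEFs to 35.2% in NTC cells. Spry1 (chromosome 3, 37639947 to 37644598) shares 24.4% of its exonic bases with Gm42922, and the library kit does not mark strand. Gm42922 is not among the deposited genes, so its level is not known here. Spry2 (chromosome 14, 105891947 to 105896819) and Spry4 (chromosome 18, 38586247 to 38601415) overlapped no other gene in their exons.

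**Figure D2:**
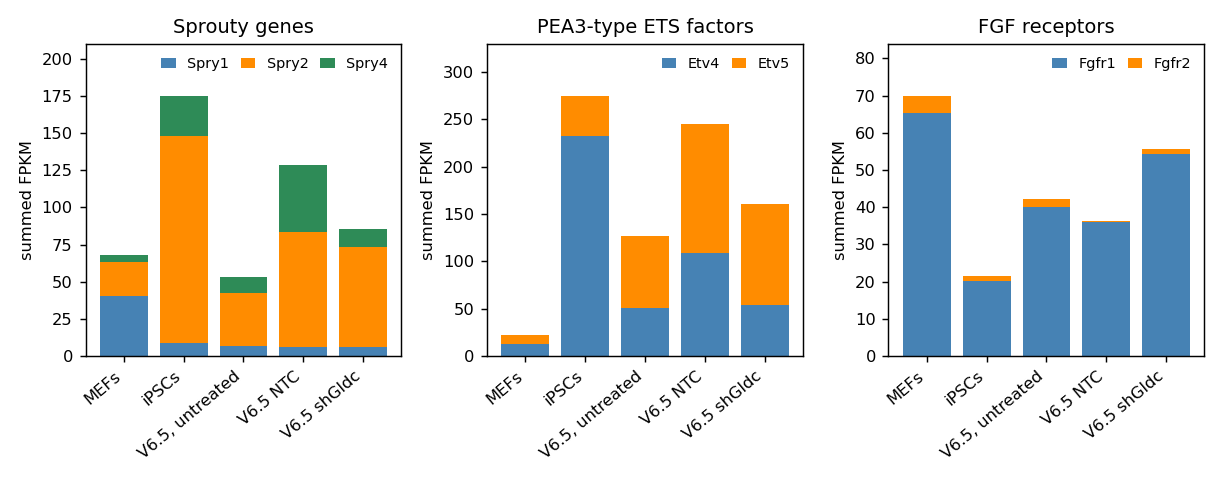
Stacked bars of summed FPKM in each of the 5 libraries for the 3 Sprouty genes (left), Etv4 and Etv5 (centre), and Fgfr1 and Fgfr2 (right), on axes that start at 0. Spry1 makes up 58.8% of the Sprouty bar in MEFs and at most 12.6% in the others, and Etv4 makes up 84.5% of the ETS bar in iPSCs.

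Dusp4 encodes a nuclear phosphatase of MAP kinases, and Dusp6 a cytoplasmic one that prefers ERK. Dusp4 was at 24.2 in MEFs, 20.0 in iPSCs, 19.8 in mESCs, 8.002 in NTC cells, and 5.83 in shGldc cells. It was similar in the 3 libraries of the first table and lower in both libraries of the second. Dusp6 was at 13.6 in MEFs, 54.2 in iPSCs, 21.7 in mESCs, 17.4 in NTC cells, and 16.3 in shGldc cells. It was high in iPSCs alone, and the other 4 libraries lay between 13.6 and 21.7. Dusp6 per Dusp4 was 0.562 in MEFs, 2.71 in iPSCs, 1.09 in mESCs, 2.17 in NTC cells, and 2.79 in shGldc cells, so Dusp4 was the more abundant of the pair in MEFs only. The exons of Dusp4 (chromosome 8, 34807297 to 34819894) and Dusp6 (chromosome 10, 99263231 to 99267489) overlapped no other gene.

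Etv4 and Etv5 encode closely related ETS transcription factors of the PEA3 type. Etv4 was at 12.9 in MEFs, 232.1 in iPSCs, 51.1 in mESCs, 109.0 in NTC cells, and 53.9 in shGldc cells. Etv5 was at 9.36 in MEFs, 42.7 in iPSCs, 76.0 in mESCs, 136.2 in NTC cells, and 106.7 in shGldc cells. Both were lowest in MEFs, but the highest library was iPSCs for Etv4 and NTC for Etv5. Their sum was 22.2 in MEFs, 274.8 in iPSCs, 127.1 in mESCs, 245.2 in NTC cells, and 160.6 in shGldc cells. Etv4 made up 57.9% of the sum in MEFs, 84.5% in iPSCs, 40.2% in mESCs, 44.5% in NTC cells, and 33.6% in shGldc cells. Etv5 was thus the more abundant of the pair in the 3 V6.5 libraries, and Etv4 in iPSCs and MEFs. Etv4 lies on chromosome 11 from 101769742 to 101785371 and Etv5 on chromosome 16 from 22381309 to 22439719. The printed Etv5 window, taken before a RefSeq start, partly overlaps this Etv5 span. Of the 50-nt stretches of Etv5 transcripts, 24.5% also occur in Gm4798, so reads from those stretches could not be assigned to 1 of them. Gm4798 itself is not among the deposited genes.

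Pluripotent cells were compared with MEFs by counting genes at least 2-fold apart, after genes below an FPKM of 1 in both libraries of a comparison had been set aside. All 10 genes passed this filter in every comparison. In mESCs over MEFs, 4 of the 10 were higher, against 30.3% of 12840 genes, and 2 were lower, against 23.3%. The 4 were Fgf4 (8.99), Etv5 (3.01), Etv4 (1.98), and Spry4 (1.19), and the 2 were Spry1 (-2.56) and Fgfr2 (-1.01). Ligand and ETS factors thus lay above MEFs, and the Sprouty genes were divided. In iPSCs over MEFs, 6 of the 10 were higher, against 31.5% of 13032 genes, and 3 were lower, against 21.3%. The 6 were Fgf4 (8.67), Etv4 (4.16), Spry2 (2.57), Spry4 (2.48), Etv5 (2.18), and Dusp6 (1.99), and the 3 were Spry1 (-2.19), Fgfr1 (-1.70), and Fgfr2 (-1.53). Dusp4 was within 2-fold in both comparisons, at -0.29 and -0.27.

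The median log2 ratio of the 10 genes was 0.64 in mESCs over MEFs, against 0.25 for all genes, and 2.08 in iPSCs over MEFs, against 0.31 for all genes. Both comparisons use the same MEF library, so they are not independent of each other. Rescaling the libraries to equal FPKM sums shifted log2 ratios well above the pseudocount by -0.24 for mESCs and -0.30 for iPSCs over MEFs. Under that scaling Spry4 in mESCs over MEFs was at 0.95 and no longer 2-fold apart. No gene of the 10 took another sign against MEFs under equal sums or median centring.

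The pluripotent libraries, iPSCs and mESCs, were then set against each other. Of the 10 genes, 4 were at least 2-fold higher in iPSCs, against 10.1% of 12323 genes, and 0 were lower, against 7.44%. Etv4 was 4.54-fold, Spry2 3.90-fold, Dusp6 2.50-fold, and Spry4 2.46-fold higher in iPSCs, log2 ratios of 2.18, 1.96, 1.32, and 1.29. These 4 are an ETS factor and 3 feedback inhibitors. Fgfr1 (-0.995), Etv5 (-0.83), Fgfr2 (-0.53), and Fgf4 (-0.33) had lower values in iPSCs, each short of 2-fold, Fgfr1 just so. Fgfr1 was at -1.06 under equal sums. Spry1 was at 0.36, and Dusp4 at 0.01, a value whose sign turned with the scaling. Fgf4 and both receptors thus lay on the other side of 0 from the Sprouty genes and Dusp6, and the ETS factors were divided. The median of the 10 genes was 0.19, against 0.04 for all genes. The primitive endoderm markers summed to 20.7 in iPSCs and 6.89 in mESCs, and 4 and 2 of the 8 reached an FPKM of 1. Their part in these differences was not tested.

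**Figure D3:**
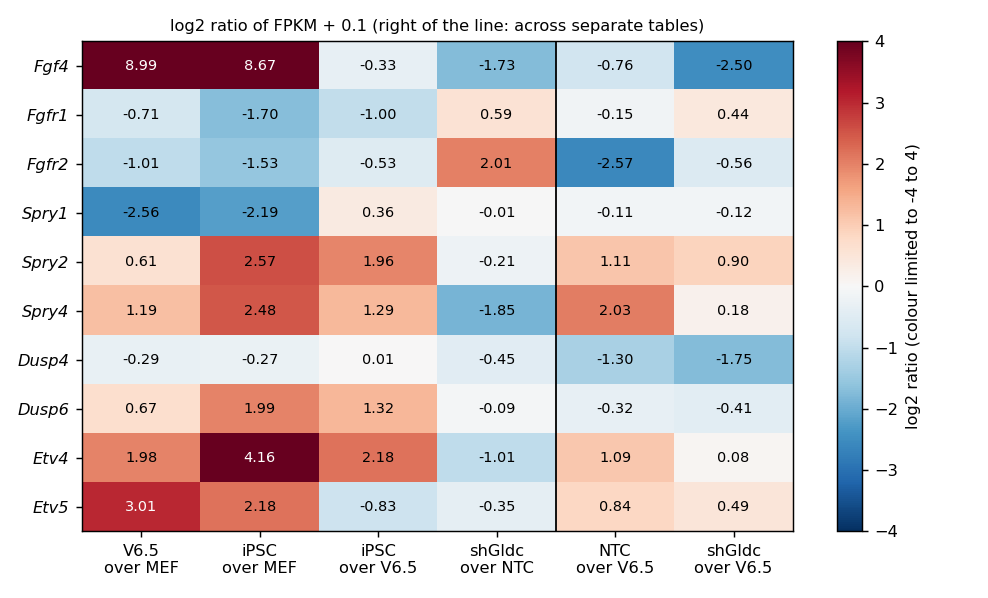
Log2 ratio of FPKM + 0.1 for each of the 10 genes (vertical axis) in 6 comparisons (horizontal axis), with colour limited to the range -4 to 4. Fgf4 reads 8.99 and 8.67 over MEFs. The Spry4, Etv4, Fgfr2, Spry2, Etv5, and Fgfr1 values of shGldc over NTC are opposite in sign to those of NTC over V6.5. The same NTC library is the denominator in shGldc over NTC and the numerator in NTC over V6.5.

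Knockdown of Gldc was compared with the NTC within 1 table. In shGldc over NTC cells, 3 of the 10 genes were at least 2-fold lower, against 7.68% of 11969 genes, and 1 was higher, against 8.97%. Spry4 was 3.62-fold, Fgf4 3.34-fold, and Etv4 2.02-fold lower in shGldc cells, log2 ratios of -1.85, -1.73, and -1.01. Fgfr2 was 5.09-fold higher in FPKM, with a log2 ratio of 2.01 that rests on its low level in NTC cells. The other 6 genes were within 2-fold, at 0.59 for Fgfr1, -0.01 for Spry1, -0.09 for Dusp6, -0.21 for Spry2, -0.35 for Etv5, and -0.45 for Dusp4. The median of the 10 was -0.28, against 0.04 for all genes.

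The NTC library itself differed from untreated V6.5 cells in several of these genes. In NTC over V6.5 cells, 3 of the 10 were at least 2-fold higher, against 4.99% of 12048 genes, namely Spry4 (2.03), Spry2 (1.11), and Etv4 (1.09). A further 2 were lower, against 10.3%, namely Fgfr2 (-2.57) and Dusp4 (-1.30). Here the shRNA and the separate making of the tables cannot be told apart. The median of the 10 was -0.13, against -0.06 for all genes.

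With untreated V6.5 cells in place of the NTC, 2 of the 10 genes were at least 2-fold lower in shGldc cells, against 13.9% of 12237 genes, and 0 were higher, against 9.89%. These were Fgf4, 5.67-fold lower (-2.50), and Dusp4, 3.40-fold lower (-1.75). Spry4 was at 0.18, Etv4 at 0.08, and Fgfr2 at -0.56, so the shGldc levels of these 3 genes lay nearer to untreated V6.5 cells than to the NTC. Of the 10 genes, Fgf4 alone was at least 2-fold lower in shGldc cells than in each of the 2 controls, against 4.99% of the 11753 genes that passed in both comparisons. Its levels were 18.0 in shGldc cells against 59.9 and 101.8, and NTC over V6.5 was -0.76. The median of the 10 was -0.02, the same as for all genes at -0.02. The 2 comparisons share the shGldc library.

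**Figure D4:**
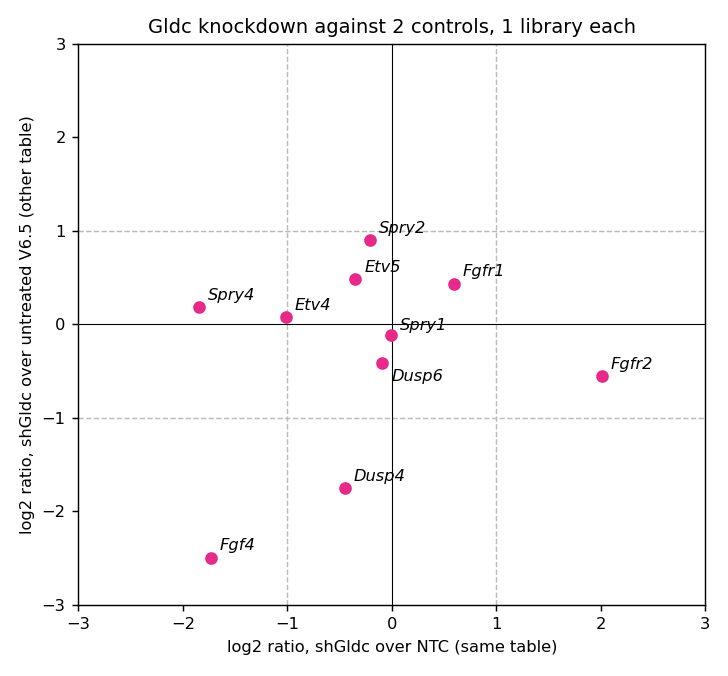
Log2 ratio of FPKM + 0.1 of the 10 genes in shGldc cells over NTC cells (horizontal axis) and over untreated V6.5 cells (vertical axis), with dashed lines at 2-fold. Fgf4, at -1.73 and -2.50, is the only point beyond 2-fold on both axes.

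Primitive endoderm markers were higher in the knockdown library than in the NTC. Their sum was 4.25 in NTC cells and 21.8 in shGldc cells, with 1 and 4 of 8 markers at an FPKM of 1. Gata4 was at 2.38 and 7.84, and Gata6 at 0.462 and 8.22. Of the 10 pluripotency markers, 9 had lower values in shGldc than in NTC cells, among them Pou5f1 (915 against 1215), Sox2 (130.4 against 223.0), Tdgf1 (130.5 against 237.3), and Utf1 (312.5 against 572.0). Dppa5a was the exception, at 1792 against 1440.4. The sums were 3845.1 and 4424.2, and all 10 reached an FPKM of 1 in both. In untreated V6.5 cells, the pluripotency sum was 7113.1, of which Dppa5a was 4145.9, and the primitive endoderm sum was 6.89. Of the 10 pluripotency markers, 9 were lower in shGldc than in untreated V6.5 cells, and 4 were lower in NTC than in untreated V6.5 cells. The part of other cell types or states in the Fgf4, Spry4, and Fgfr2 values was not tested.

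The 81 other genes of the pathway were grouped as ligands, receptors and coreceptors, the Ras-ERK cascade, inhibitors, and targets. Against MEFs, 64 passed the filter for mESCs, of which 15 were at least 2-fold higher and 24 lower, against 30.3% and 23.3% of all genes. For iPSCs, 63 passed, of which 16 were higher and 19 lower, against 31.5% and 21.3%. Among the targets, 11 of 15 were lower in mESCs than in MEFs and 9 of 15 in iPSCs, against the same 23.3% and 21.3%, and 1 was higher in each, Ier2 (2.02 and 1.59), an immediate early gene. Egr1, an immediate early gene of ERK signalling, was at 54.4 in MEFs, 22.8 in iPSCs, 5.73 in mESCs, 3.97 in NTC cells, and 6.45 in shGldc cells. Myc was at 31.3, 4.61, 2.11, 19.1, and 8.30 in the same order. Fos, another immediate early gene, was at 4.40, 5.11, 2.099, 0.458, and 1.66. Of the 16 targets that reached an FPKM of 1 in any library, 11 had their highest value in MEFs, against 30.7% of 13656 genes, and Fos, Ier2, Elk1, and Phlda1 were among those that did not. Etv4 and Etv5 had their lowest values in MEFs. The lowest target ratios were those of Myc (-3.83) and Egr3 (-3.56) in mESCs, and of Egr2 (-3.49) and Egr3 (-3.35) in iPSCs. Of the other inhibitors, 2 of 12 were higher and 5 lower in mESCs than in MEFs, against 30.3% and 23.3% of all genes. In iPSCs, 4 of 13 were higher and 3 lower, near the 31.5% and 21.3% of all genes. The medians were -0.57 and -0.24, against 0.25 and 0.31 for all genes. The lowest were Rasa1, which inactivates Ras, at -2.11 and -1.90, Spred3 at -1.79 in mESCs, and Errfi1 at -1.18 in iPSCs. The highest in both was Dusp9, a cytoplasmic phosphatase of ERK, at 7.50 in MEFs, 251.1 in iPSCs, 267.9 in mESCs, 119.5 in NTC cells, and 220.8 in shGldc cells. Spred1, a Sprouty relative, was at 7.16, 5.63, 3.96, 4.003, and 3.19 in that order.

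Ligands and receptors other than the 10 genes were mostly low. Of the 21 other FGF genes, intracellular ones included, 11 passed in mESCs over MEFs and 9 in iPSCs over MEFs. The highest ratios in mESCs were those of Fgf17, at 9.34 against 0.0241 in MEFs, and Fgf15, at 7.29 against 0.0450. In iPSCs they were those of Fgf3, at 5.07 against 0.0341, and Fgf17, at 1.698. The lowest were those of Fgf21 and Fgf7 in mESCs, at 0.0643 and 0.488 against 1.71 and 3.30 in MEFs, and of Fgf7 and Fgf10 in iPSCs, where Fgf7 was listed at 0 and Fgf10 was at 0.123 against 1.296. The lower level of a pair was often below the pseudocount of 0.1, so levels are given here in place of ratios. Fgf5, a ligand of the primed epiblast, was at 0.650 in MEFs, 0.0181 in iPSCs, and 0.405 in mESCs. Both shRNA libraries listed it at 0. Fgfr4 was at 0.0386 in MEFs, 6.21 in iPSCs, 2.67 in mESCs, 1.48 in NTC cells, and 1.60 in shGldc cells. Fgfr3 was at 0.682, 2.55, 2.65, 1.05, and 0.733 in the same order. MEFs thus had the lowest values of Fgfr3 and Fgfr4 and the highest of Fgfr1 and Fgfr2. Flrt2, a membrane partner of FGF receptors, was at 13.9 in MEFs and at most 0.225 elsewhere.

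The Ras-ERK cascade was taken as 21 genes, including Rps6ka1 and Rps6ka3, kinases downstream of ERK. All 21 passed in every comparison. None was 2-fold apart, in either direction, between iPSCs and mESCs, against 17.5% of all genes, or between shGldc and NTC cells, against 16.7%. The count was also 0 for NTC over V6.5 cells, against 15.2%, and for shGldc over V6.5 cells, against 23.7%. Against MEFs, 4 were higher and 2 lower in mESCs, against 30.3% and 23.3% of all genes, and 5 higher and 2 lower in iPSCs, against 31.5% and 21.3%. Rps6ka1 (4.33 and 4.06) and Gab1, a docking protein (4.06 and 3.73), had the highest ratios, and Rps6ka3 (-1.40 and -1.47) and Ptpn11 (-1.15 and -1.26) the lowest.

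Between iPSCs and mESCs, 9 of 58 other pathway genes were at least 2-fold higher in iPSCs and 4 lower, against 10.1% and 7.44% of all genes. Of the 9, 6 were targets, led by Egr1 (1.97) and Phlda1 (1.90), and Fos was at 1.25 and Myc at 1.09. The inhibitor Dusp2 was at 2.97 and the ligand Fgf21 had levels of 1.76 and 0.0643. Ccnd1, which encodes cyclin D1, was lower at -1.39, and the ligands Fgf15 and Fgf17 at -3.24 and -2.39. Of the 13 targets that passed, 6 were higher and 1 lower in iPSCs, against the same 10.1% and 7.44%.

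In shGldc over NTC cells, 6 of 56 other pathway genes were at least 2-fold higher and 4 lower, near the 8.97% and 7.68% of all genes, with a median of -0.05. The targets Fos (1.66) and Phlda1 (1.41), the inhibitors Dusp2 (1.33) and Dusp5 (1.00), and the membrane protein gene Flrt3 (1.34) were higher. Ier3 (-2.22), Myc (-1.19), and the ligand Fgf3 (-1.61) were lower, and Fgf15 was at -0.99. In NTC over V6.5 cells, 3 of 56 were higher, led by Myc (3.12), against 4.99% of all genes, and 8 lower, against 10.3%, with Fos at -1.98 and Dusp9 at -1.16. Against untreated V6.5 cells, shGldc cells had 6 of 59 higher and 6 lower, against 9.89% and 13.9% of all genes, with Phlda1 at 2.55, Myc at 1.93, and Ier3 at -3.35. Fgf3 (-0.39) and Fos (-0.32) were within 2-fold of untreated V6.5 cells, and in NTC over V6.5 cells Fgf3 was at 1.22. Myc was lower than in the NTC but higher than in untreated V6.5 cells. Ier3 was at 28.3 in MEFs, 23.2 in iPSCs, 27.5 in mESCs, 12.5 in NTC cells, and 2.61 in shGldc cells.

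**Figure D5:**
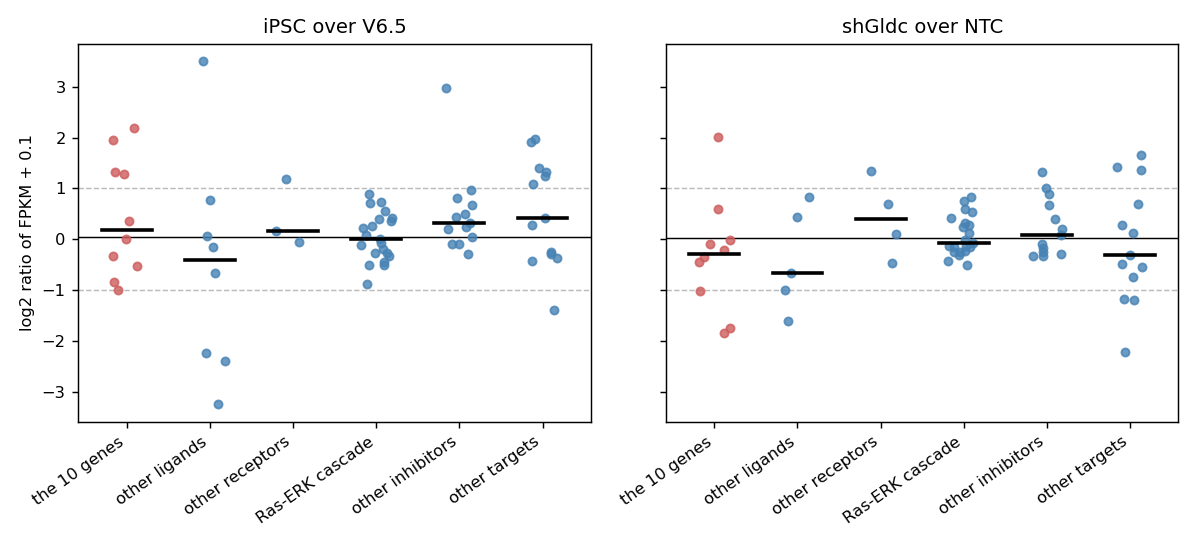
Log2 ratio of FPKM + 0.1 (vertical axis) for the 10 genes and the 5 groups of other pathway genes that passed the filter, in iPSCs over mESCs (left) and shGldc over NTC cells (right), with 1 point per gene, a bar at each median, a thin line at the median of all genes, and dashed lines at 2-fold. All 21 cascade genes lie within 2-fold in both.

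The pattern of each gene over the 5 libraries was compared with those of 13656 genes by the Euclidean distance of mean-centred log2(FPKM + 0.1), in which 0 means the same pattern. The nearest gene was Grb7 for Fgf4 (0.74), Sptssa for Fgfr1 (0.26), Tmem200b for Fgfr2 (0.54), Ramp1 for Spry1 (0.11), and Psd4 for Spry2 (0.21). It was Mir7068 for Spry4 (0.33), Zfp36 for Dusp4 (0.33), Stard8 for Dusp6 (0.11), Apba2 for Etv4 (0.33), and Ctcfl for Etv5 (0.24). Grb7 was listed at 0 in MEFs, and was at 49.8 in iPSCs, 35.3 in mESCs, 22.5 in NTC cells, and 10.4 in shGldc cells. Of the 10 genes, Spry2 lay nearest to Etv4 (1.346) and Dusp6 to Spry2 (1.348), and Spry4 to Spry2 (1.39). Fgf4 was the farthest from any other, at 5.16 from Etv4. With 5 libraries these distances are a description only, and Grb7, Tmem200b, Ramp1, Psd4, Mir7068, Apba2, and Ctcfl were below an FPKM of 1 in 1 or more libraries.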

How the data were processed

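RNA was extracted with TRIzol, made into libraries with the NEBNext Ultra RNA kit, which does not mark strand, and sequenced on an Illumina HiSeq instrument. Per the labels and the paper's methods, reads were mapped to mm10 with TopHat2 2.1.0 and assembled with StringTie 1.3.4d (the submitters' notes also name mm9 and SAMtools 1.7). The authors deposited Ballgown FPKM values in 2 separately made tables of 24421 genes, with 3 and 2 libraries. Annotation, strand setting, and filters are not given in the sources used here, and the identity of the Gldc shRNA, headed sh3, was not resolved.

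The 10 genes and the other lists were chosen with earlier results of these data known. Differences of log2(FPKM + 0.1) were computed where either library reached an FPKM of 1, and called at 2-fold. With 1 library per group no test was run. Other pathway genes were drawn from a rule, and not all it allows are named: the 2 highest and 2 lowest ratios of a list plus Fgf5, Fgfr3, Fgfr4, Spred1, Dusp9, Egr1, Fos, and Myc. From the full rule's 2 nearest genes in pattern, the nearest is given. A few further genes (Lyz2, C1qc, Cd68, Gata4, Gata6, Pou5f1, Sox2, Tdgf1, Utf1, Dppa5a) were chosen after their values were seen. Depth was estimated over 5723 genes with a single transcript. Alternatives were other pseudocounts (1, 0.01), equal FPKM sums, median centring, no minimum or a minimum FPKM of 5, and a control of untreated V6.5 cells. The code ran in Python 3.11.15 with scipy 1.17.1, pandas 2.3.3, numpy 2.4.6, and, for plots, matplotlib 3.10.9.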

Additional observations from a re-analysis of the deposited data

How the results depend on the processing

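Of 305 alternative values for single genes, 292 moved by less than 0.60 with no value beyond 2-fold changing sign. Here 0.60 is the robust SD of log2 ratios of NTC over untreated V6.5 cells. Most of the 292 could not have moved that far, so their number says little about stability. The filters (50 and 45 values) leave a gene's own ratio unchanged. Equal sums and centring (50 values each) shift log2 ratios by about 0.31 or less. Pseudocounts of 1 and 0.01 moved 4 and 2 of 50 values. Exchanging the control left 3 of the 10 genes among the 292. When untreated V6.5 cells replaced the NTC, the log2 ratio of shGldc cells reversed for Fgfr2 (-0.56), Spry4 (0.18), and Etv4 (0.077). Each of these had been beyond 2-fold against the NTC. The sign also turned for Spry2 (-0.21 to 0.90) and Etv5 (-0.35 to 0.49), Fgf4 was at -2.50 and Dusp4 at -1.75, and 0 of the 10 genes were at least 2-fold higher. With a pseudocount of 1, Fgf4 over MEFs was at 6.55 in mESCs and 6.22 in iPSCs (9.85 and 9.53 with 0.01), and Fgfr2 was at 0.93 in shGldc over NTC and -1.31 in NTC over V6.5. That pseudocount left 1 of the 10 lower in mESCs over MEFs and 0 higher in shGldc over NTC, and 5 other pathway genes higher in iPSCs over mESCs and 2 in shGldc over NTC. Equal FPKM sums, and centring, each put 1 gene, Fgfr1, lower in iPSCs than in mESCs. An FPKM minimum of 5 removed Fgfr2, which left 1 lower in mESCs over MEFs, 0 higher in shGldc over NTC, and 1 lower in NTC over V6.5. For other pathway genes that minimum gave 9 higher and 14 lower in mESCs over MEFs, 12 lower in iPSCs over MEFs, 5 higher in iPSCs over mESCs, 3 higher in shGldc over NTC, and 4 lower in NTC over V6.5, since fewer genes passed. With no filter, 7 were lower in shGldc over NTC, and 5 were higher and 13 lower in NTC over V6.5, since more genes entered. No paired analysis was possible because each group is 1 library. Depth limits the low values most, Fgf4 in MEFs and Fgfr2 in NTC cells, and the lack of replicates limits all of them.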

Other observations

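Markers of other cell states differed between the libraries. Formative epiblast markers summed to an FPKM of 1.81 in MEFs, 50.6 in iPSCs, 54.0 in mESCs, 87.2 in NTC cells, and 88.0 in shGldc cells. Dnmt3b was the largest part of each pluripotent sum, at 32.4 in iPSCs, 24.5 in mESCs, 65.0 in NTC cells, and 53.7 in shGldc cells. Sox3 (7.13 in mESCs) was also higher in both shRNA libraries than in mESCs. Pou3f1 (9.30 in mESCs), Otx2, and Fgf5 were lower in both, and Lef1 (1.16 in mESCs) was higher in shGldc cells only. Within that list, Otx2, an epiblast factor, was at 11.5 in mESCs but at 0.304 in iPSCs, 0.592 in NTC cells, and 0.549 in shGldc cells. Between NTC and shGldc cells, Sox3 was at 13.4 and 27.8, Lef1 at 1.11 and 5.01, Pou3f1 at 7.02 and 1.01, and Dnmt3b at 65.0 and 53.7, so the members lay on both sides. Mesoderm markers summed to 0.304, 19.4, 9.45, 14.5, and 17.4 in the order MEFs, iPSCs, mESCs, NTC, and shGldc, and neural markers to 24.9, 3.59, 15.0, 5.70, and 6.41. T, the mesoderm factor Brachyury, was at 0.425 in mESCs, 4.33 in NTC cells, and 5.08 in shGldc cells, whereas Hand1 was at 3.01, 0.382, and 0.979 in the same libraries and at 13.6 in iPSCs, most of the iPSC sum, and Mesp1 was at 0.301 and 0.417 and listed at 0 in shGldc cells. The genes named here were chosen after their values were seen.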
